A study of Mus musculus with 6 samples.

Results

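Day 7 of embryoid body differentiation was compared with day 0 in mouse embryonic stem cells, at RNA sites that can fold into G-quadruplexes (rG4s). The comparison took 4 of the 6 samples, 2 replicates of day 7 (D7) and 2 of day 0 (D0), and left aside the tables made from the day 7 samples that are named in vitro. A site entered when at least 2 of the 4 libraries had 20 or more reads over it, which held for 4553 of the 5538 listed sites, in 2197 of 2621 gene symbols. D7 cells had been freed of feeder cells, grown as embryoid bodies without leukemia inhibitory factor (LIF), held in suspension until day 3 and then attached to gelatin. D0 cells were the undifferentiated line, grown on inactivated feeders with LIF. Both groups carry the TsixTST/+ genotype at Tsix in a clonal line, bred from 129S1/CastEiJ and 129S1 parents and labelled WT, so they stand for a single clone. All cells were treated with dimethyl sulfate (DMS), and the RNA was the polyadenylated part of the chromatin-bound fraction. The labels do not say that the 2 replicates of a day came from separate cultures. The p-values and standard errors of sites measure only the spread between libraries, and the fit held the 2 day 3 samples beside the 4 compared. In bulk RNA, fewer cells of a type and less RNA per cell cannot be told apart.

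An rG4 forms when runs of guanines stack into flat tetrads held by Hoogsteen bonds and a central K+ ion, while Li+ does not stabilise it. DMS methylates guanines on the face that these bonds use, so a motif folded in the cell is protected and can fold again during reverse transcription in K+, where it stops the enzyme, whereas a motif that was open in the cell is methylated and read through. Embryonic stem cells that lose LIF leave the pluripotent state, switch off its transcription factors and form precursors of the germ layers, and female cells begin to silence an X chromosome through the long noncoding RNA Xist.

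Each site has 3 measures. Coverage, the K+ and Li+ reads over the site together, stands for the amount of RNA and is given as RPM, the reads scaled to a common library size outside ribosomal and mitochondrial sites. K+ stops are the reads that end at the site in K+, and the stop share is the stops as a percent of the reads over the site in the same cation. No table lists a coverage of 1 to 5 reads for a cation, so a site listed at 0 may hold up to 5 reads per cation, and 2 Xist sites without a value in D0 replicate 1 were taken as 0. Folds against a day at 0 are given as lower bounds, against 10 reads per library for coverage and 5 for stops.

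The motifs below belong to sites on which the results turn. They are printed 5′ to 3′ as deposited, in the DNA letters of the RNA strand on GRCm38.p6/mm10, with runs of 2 or more guanines in capitals. The first group rose in coverage by day 7, and its members range from an unbroken row of short G runs in Xist to a bulged motif in Fgf8.
Jun, 3′ UTR, chr4:95049837-95049858, minus strand: GGGaGGGctGGGaaGGGGGGGG
Fgf8, 3′ UTR, chr19:45736908-45736935, minus strand: gcGGcacagcaaaGGGGaGGGGctGGGG
Car4, 3′ UTR, chr11:84965948-84965963, plus strand: GGGGGtGGaGGGaGGG
Nnat, 3′ UTR, chr2:157561862-157561888, plus strand: GGGtGGGagaGGaGGGGGGaagaGGGG
Peg3, 3′ UTR, chr7:6704185-6704208, minus strand: GGaatGGcaGGGcagttgtGGcGG
Xist, noncoding exon, chrX:103460424-103460446, minus strand: GGGtGGGtGGGtGGGtGGGtGGG

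The second group fell in coverage by day 7.
Mybl2, 5′ UTR, chr2:163054794-163054820, plus strand: GGGcgtaaGGGtgcGGcGGGGtccGGG
Esrrb, 3′ UTR, chr12:86519230-86519256, plus strand: GGGGatGGGGaGGGtaGGGGcGGGGGG
Jup, 3′ UTR, chr11:100370746-100370768, minus strand: GGGtttGGGGGcGGGGGtGGGGG

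The last is a canonical 3′ UTR motif, with runs of at least 3 guanines and short loops, whose K+ stop share was higher in both D7 libraries than in both D0 libraries, although it did not pass the test.
Ap2b1, chr11:83404972-83404991, plus strand: GGGGaGGGtGGGGtttGGGG

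The libraries differed in depth, most of all D7 replicate 1 and D0 replicate 2. Reads outside ribosomal and mitochondrial sites numbered 2367914 and 783430 on D7, against 779318 and 295729 on D0. Ribosomal and mitochondrial sites held 65.0% and 73.0% of the listed reads on D7, and 77.5% and 83.6% on D0. The share of sites listed at 0 was 0.434% and 6.76% on D7, against 16.4% and 43.8% on D0, with medians of 155 and 56 reads per site on D7 and of 45 and 8 on D0. D7 replicate 1 was therefore the deepest library and D0 replicate 2 the shallowest. Log2 RPM correlated across sites with r = 0.919 between the D7 replicates and 0.724 between the D0 replicates, and with r of 0.587 to 0.617 between a D7 and a D0 library, where sites of 1 gene are not independent.

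Coverage moved both ways between the days, and how many sites moved each way depended on the minimum of reads. limma-voom with Benjamini-Hochberg adjustment over all 4553 sites called 533 sites higher on D7, 11.7% of those tested, and 170 lower, 3.73%, at an adjusted p under 0.05. Of the 533, 289 sites in 200 genes were listed at 0 in both D0 libraries. In all, 407 of the 533 had fewer than 20 reads in both D0 libraries, out of 741 such sites tested, of which 0 fell. These sites had passed the minimum through D7 alone, which favours a rise. At the 2124 sites with 20 or more reads in each of the 4 libraries, in 1062 genes, 64 sites in 34 genes were higher on D7, which is 3.01%, and 164 sites in 123 genes were lower, which is 7.72%. Their median change was -0.17 on the log2 scale, against 0.40 over all 4553 sites. With a minimum 5 times as high the counts were 122 higher and 197 lower, and with the minimum scaled to each library's depth 186 higher and 254 lower.

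The estimate of spread included the 2 libraries of day 3. With the D7 and D0 libraries alone the counts were 347 higher and 53 lower. Of 71 named coverage calls, that fit kept 50 and lost 21, among them Ddit4, Mest, Hnrnph1 and Ankrd60. The counts also rested on single libraries. Refitted on the same sites, they came to 263 higher and 35 lower without D7 replicate 1, 375 higher and 95 lower without D7 replicate 2, 194 higher and 181 lower without D0 replicate 1, and 290 higher and 98 lower without D0 replicate 2. When the minimum was also applied again, 11 sites were higher and 8 lower without D7 replicate 1, since no site at 0 on D0 can then enter, 60 higher and 87 lower without D7 replicate 2, and 904 higher and 272 lower without D0 replicate 1. Below, a call is said to be lost where leaving out a library and applying the minimum again ended it, and where the fit on the same sites kept it, that is said beside it.

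**Figure D1:**
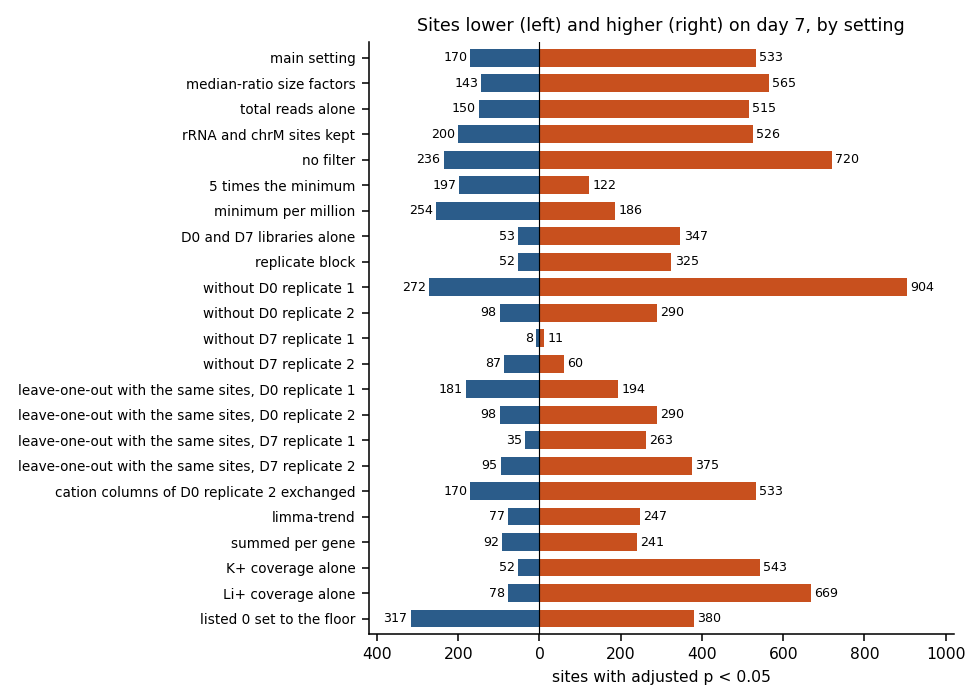
Number of sites with an adjusted p under 0.05 under each setting, with sites lower on D7 as bars to the left of 0 and sites higher on D7 as bars to the right. The main setting gives 170 lower and 533 higher, and the right-hand bars are shorter than the left-hand ones with 5 times the minimum (122 against 197), with the minimum scaled to depth (186 against 254) and without D7 replicate 2 (60 against 87).

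By region, at the sites with 20 reads in all 4 libraries, 115 of 1271 in 3′ UTRs were lower on D7 and 42 higher. In coding sequence 23 of 478 were lower and 9 higher, in 5′ UTRs 5 of 89 each way, and in noncoding RNA 4 of 72 lower and 6 higher. The median guanine content was 60.0% at sites that rose, 60.9% at sites that fell and 60.5% at the others, with median motif lengths of 29, 27 and 28 bases. The regions were not tested against each other.

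The labels were checked against markers of the cell types that the cultures could hold. Of 10 embryonic stem cell markers, Pou5f1, Esrrb, Tdgf1 and Lin28a have listed sites, and these summed to 2975 and 3444 RPM on D7, against 7170 and 6153 on D0. Of 8 neural markers, Sox11, Nes, Nnat and Dbn1 are listed, with sums of 1796 and 1723 on D7, against 45.6 and 91.0 on D0. The primitive streak markers T and Fgf8, 2 of 6 listed, summed to 614 and 916 on D7 and were at 0 in both D0 libraries. Krt8 and Krt18, 2 of 5 trophoblast markers listed and keratins of other simple epithelia too, summed to 1203 and 1032 on D7 and were at 0 on D0. None of 6 endoderm markers and none of 4 blood markers has a listed site. Nanog, Sox2, Klf4 and Zfp42 have none either, so the sites show the stem cell state through few genes. Col1a1 and Fn1, 2 of 10 feeder or fibroblast markers listed, summed to 410 and 477 on D7 and to 306 and 105 on D0, and the part of feeder cells in any result was not tested.

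Sites in 6 of 18 tested genes of the pluripotency list fell by day 7. At its 28 sites with 20 reads in all 4 libraries, 10 fell and 1 rose, against the 7.72% that fell and 3.01% that rose over all such sites, with a median log2 change of -0.56, against -0.17. The other 12 genes had no lower call, among them Trim71 (8 sites), Jarid2 (4 sites), Klf5, L1td1 and Rif1. Pou5f1 encodes Oct4, the transcription factor without which the pluripotent state is lost. Its 5′ UTR and coding site had 283 and 748 RPM on D7, against 3268 and 3187 on D0. The days did not overlap, and the log2 change was -2.87 ± 0.41 (SE, n = 2 each; limma-voom adjusted p = 0.00449). A second Pou5f1 site also fell. The 4 sites of Epop, a partner of Polycomb repressive complex PRC2 in stem cells, all fell, and the one with most reads had 685 and 435 on D7, against 2347 and 4722 on D0. Zfp57, which guards methylation at imprinted loci, had 98.6 and 162 RPM on D7, against 1065 and 1193 on D0. The calls of Pou5f1, Epop and Zfp57 held without any one library.

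Further members fell with calls that rested on a library. Mybl2, a cell cycle transcription factor, had 14.9 and 81.0 RPM on D7, against 329 and 304 on D0, with a log2 change of -4.02 ± 0.51. Esrrb, an orphan nuclear receptor of naive stem cells, had 29.7 and 37.4 on D7, against 193 and 192 on D0. Tdgf1, a Nodal co-receptor, had 134 and 186 on D7, against 376 and 304 on D0. Without D7 replicate 1 the adjusted p was 0.0528 for Mybl2 (0.0235 on the same sites, where the call held), 0.204 for Esrrb and 0.311 for Tdgf1. The Tdgf1 call was also lost without D0 replicate 1 (0.0867), D0 replicate 2 (0.0809) and D7 replicate 2 (0.0641). Klf5, a Krüppel-like factor, missed the threshold at 18.9 and 24.9 on D7, against 75.6 and 273 on D0 (adjusted p = 0.0535). Lin28a, an RNA-binding protein that blocks let-7 maturation, went the other way at 1 of its 3 sites, and its deepest site had 1460 and 1104 on D7, against 712 and 868 on D0 (adjusted p = 0.11).

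The strongest falls also took in genes outside that list. Fam25c had 52.7 and 59.8 RPM at a coding site on D7, against 640 and 826 on D0. The 5′ UTR site of Smg5, a factor of nonsense-mediated mRNA decay, had 99.0 and 259 on D7, against 1218 and 944 on D0. Both calls held without any one library. Adam23, a cell-surface member of the ADAM family, had 6.75 and 33.7 on D7, against 210 and 287 on D0, and its call was lost without D7 replicate 1 (adjusted p = 0.109) or D7 replicate 2 (0.0974). The coding site of Ankrd60, an ankyrin repeat protein, stopped alike in both cations and on both days. Its K+ stop share was 52.3% and 49.4% on D7, against 48.5% and 49.4% on D0. Its Li+ share was 48.8% and 46.2% on D7, against 49.6% and 50.4% on D0. The Ankrd60 site had 272 and 3647 RPM on D7, against 16335 and 27326 on D0. Its D7 replicates differed widely, and without D0 replicate 2 the adjusted p was 0.12.

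Sites in several genes of the germ layers were listed at 0 on D0 and had reads on D7. Summed over all listed sites, the neural list, with 11 of 35 genes listed, had 3186 and 2913 RPM on D7, against 330 and 168 on D0. In the endoderm list only Car4 and Sparc, 2 of 17 genes, are listed, and none of the 6 endoderm markers above. These 2 genes had 1588 and 1658 on D7, against 186 and 63.0 on D0. The neural list had 11 genes tested at 23 sites, of which 18 rose and none fell, against 11.7% higher over all tested sites. No site of the list had 20 reads in all 4 libraries, and entry through D7 alone favours a rise. Basp1 and Marcks had no call. Dbn1, the actin-binding protein drebrin of neurites, had 360 and 403 RPM on D7 and was listed at 0 in both D0 libraries, at least 15.9-fold higher. Nnat, an imprinted membrane protein of developing brain, had 274 and 236 on D7 and 0 on D0, at least 10.6-fold higher. Sox11, a transcription factor of neural precursors, had 192 and 122 on D7 and 0 on D0, at least 6.54-fold higher. In Nes, the intermediate filament of neural stem cells, 3 of 5 sites rose. The streak list, with 2 of 24 genes listed, had 2 sites, and both rose. Fgf8, a growth factor of the streak and of later signalling centres, had 591 and 889 on D7 and 0 on D0, at least 30.8-fold higher. T, the mesoderm factor Brachyury, had 22.5 and 27.4 on D7 and 0 on D0, at least 1.04-fold higher, and its call was lost without D7 replicate 1 (adjusted p = 0.0685 on the same sites) or D0 replicate 1 (0.108 on the same sites and 0.0629 with the minimum applied again). In the endoderm list 2 of 4 sites rose, both in Car4, and the 2 in Sparc did not pass. Car4, a membrane-bound carbonic anhydrase, had 911 and 966 on D7 and 0 on D0, at least 39.1-fold higher.

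Keratins and some junction genes rose as well. Of 24 sites in 12 genes of the epithelial list, 9 rose and 1 fell, against 11.7% and 3.73% over all tested sites. At the 16 with 20 reads in all 4 libraries 3 rose and 1 fell, against 3.01% and 7.72% over all such sites. The median of the 16 was 0.61, against -0.17. Krt18 had 731 and 505 RPM on D7 and 0 on D0, at least 25.7-fold higher. Its dimer partner Krt8 had 472 and 527 on D7 and 0 on D0, at least 20.8-fold higher. Cldn6, a tight junction claudin of early epithelia, had 163 and 182 on D7 and 0 on D0, at least 7.18-fold higher. Cldn7, a related claudin, rose at 3 of 5 sites, with 672 and 527 on D7 and 190 and 213 on D0 at the deepest (log2 1.59 ± 0.28), a call lost without D7 replicate 1 (adjusted p = 0.0949). Jup, the desmosomal plakoglobin, fell to 297 and 365 on D7, against 922 and 829 on D0, a call that also failed without D7 replicate 1 (0.0924, but 0.0491 on the same sites). Cdh1 and Epcam, adhesion proteins of epithelia that stem cells express as well, did not pass, with log2 changes of 0.54 ± 0.38 and -0.11 ± 0.32.

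Among cytoskeletal genes Tpm1, a tropomyosin that winds along actin filaments, rose at 3 of 4 sites. Its deepest site, in the 3′ UTR, had 1530 and 1316 RPM on D7, against 169 and 108 on D0, a log2 change of 3.23 ± 0.31 (adjusted p = 0.00204) that passed without any one library. Of 45 sites in 15 genes of the actin and muscle list 20 rose and none fell, against 11.7% and 3.73% over all tested sites. Flnc and Cald1 rose at 4 of 4 sites each and Myh10 at 3 of 5, none with 20 reads in all 4 libraries. At the 16 sites that had them 4 rose, with a median of 0.53, against 3.01% and -0.17 over all such sites. Serpinh1, the collagen chaperone Hsp47, had 1426 and 1089 on D7, against 171 and 322 on D0 (log2 2.52 ± 0.37), and the adjusted p was 0.0584 without D7 replicate 1 (0.0253 on the same sites). Actb, Tmsb4x, Flna and Actn4 did not pass the test. In the matrix list 8 of 23 sites rose, in Ccn1, Thbs1 and Col1a1, against 11.7% over all tested sites. Another 8 sites of the list had 20 reads in all 4 libraries, and none of those rose, against 3.01% over all such sites. Ccn1, a matricellular protein, had 1498 and 921 on D7 at one site and 0 on D0, at least 50.4-fold higher. Thbs1, thrombospondin, had 211 and 166 on D7 and 0 on D0, at least 7.85-fold higher.

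**Figure D2:**
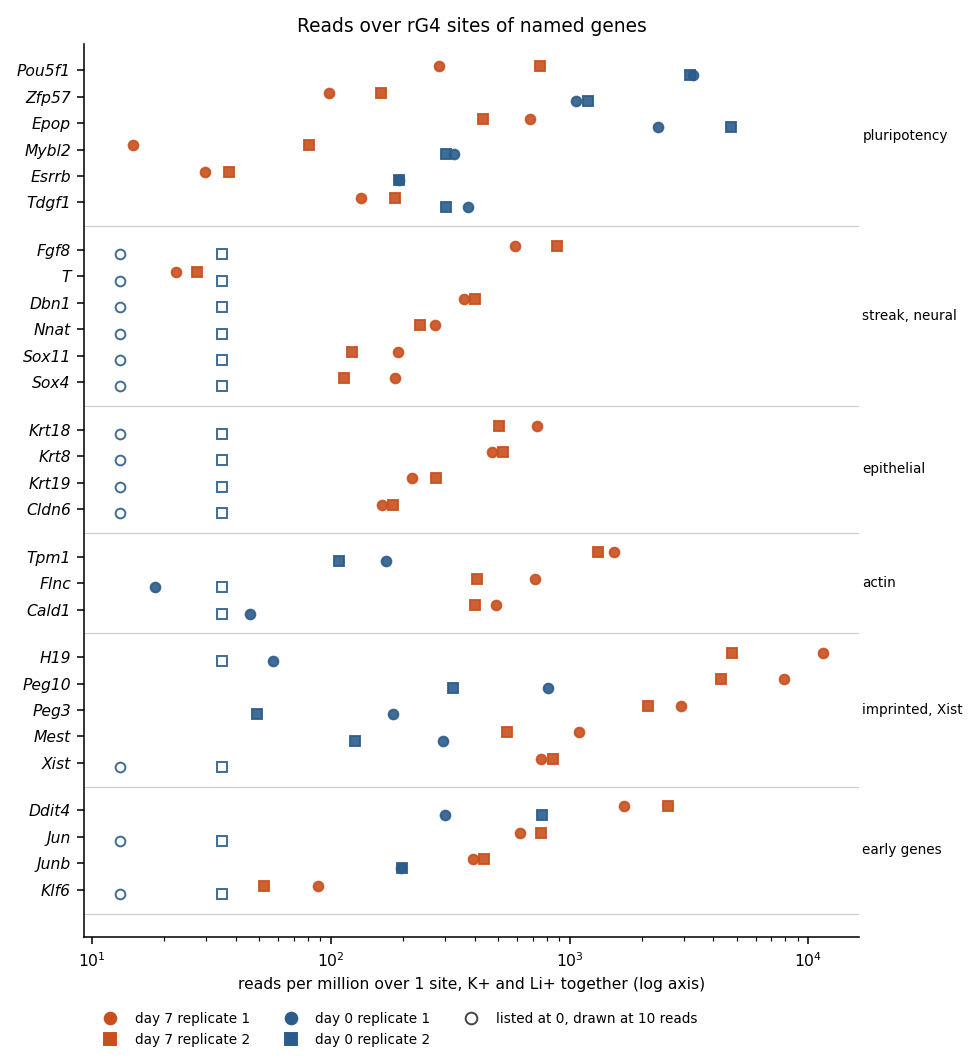
Level in RPM over 1 site per gene (K+ and Li+ together, log axis) in each library, with D7 in orange above D0 in blue, circles for replicate 1 and squares for replicate 2, and open symbols for a site listed at 0, drawn at 10 reads. Both D7 points lie left of both D0 points for the 6 pluripotency genes and right of them for the others, except T, whose 22.5 and 27.4 RPM on D7 lie below the level that 10 reads give in D0 replicate 2.

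Of 11 tested imprinted genes, which are read from 1 parental copy, 7 had sites that rose and none had sites that fell. Of their 38 sites 30 rose, against 11.7% over all tested sites, and 15 of the 30 belong to the H19 transcript. No site of H19, Peg3 or Nnat had 20 reads in all 4 libraries, and entry through D7 alone favours a rise. At the 7 sites that had them, in 4 genes, 4 rose, 3 in Peg10 and 1 in Mest, against 3.01% over all such sites. The median of the 7 was 1.86, against -0.17. Peg10, a retrotransposon-derived gene of placenta and embryo, had 7876 and 4318 RPM on D7, against 814 and 325 on D0, a log2 change of 3.44 ± 0.47 (adjusted p = 0.00405) that passed without any one library, and its other 2 sites rose as well. Peg3, a zinc finger gene read from the paternal copy, had 2921 and 2122 on D7, against 183 and 49.0 on D0, and all 5 of its sites rose. Mest, another paternally read gene, had 1097 and 545 on D7, against 296 and 126 on D0, but its call was lost without D7 replicate 1 (adjusted p = 0.18) or D0 replicate 2 (0.14). Slc38a4, Mirg, Impact and Igf2r did not pass.

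The H19 long noncoding RNA, read from the maternal copy, had the highest D7 level of the imprinted genes. Its deepest site had 11550 and 4770 RPM on D7, against 57.4 and 0 on D0. All 15 sites rose, with log2 changes of 7.97 to 11.16, values that depend on how the 0 of D0 replicate 2 is handled and are no bounds. The sites share 1 transcript and are not independent. For the deepest site the adjusted p was 0.144 without D7 replicate 1 and 0.0503 without D7 replicate 2 when the minimum was applied again, and 0.0181 and 0.0135 on the same sites.

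Xist was listed at 0 on D0 at every tested site and had reads at each on D7. Its deepest site had 761 and 855 RPM on D7 and 0 in both D0 libraries, at least 33.7-fold higher. The canonical motif printed above had 187 and 201 on D7 and 0 on D0, at least 8.08-fold higher. All 9 tested sites listed under Xist rose, and they too share 1 transcript. A further site, listed under both Gm27733 and Xist, also rose. With 0 reads listed on D0, these sites had passed the minimum through D7 alone, which favours a rise. The antisense gene Tsix overlaps Xist, and no source used here states whether counting was by strand, so reads from both genes cannot be told apart. Rlim, an X-linked activator of Xist, did not pass at its single site, with 51.8 and 53.6 on D7, against 40.4 and 52.5 on D0. Of the other nuclear noncoding RNAs, Malat1 rose at 6 of 12 sites, with log2 changes of 0.47 to 1.57 over the 12, and Neat1, which builds paraspeckles, at none of 12.

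Immediate early and stress genes rose where they moved. Of 41 sites in 14 genes 22 rose and none fell, against 11.7% higher and 3.73% lower over all tested sites. Jun and Klf6 had no site with 20 reads in all 4 libraries. Of the 19 sites that had them 10 rose, with a median of 1.70, against 3.01% and -0.17 over all such sites. Those 10 were 8 sites of Ddit4 and 2 of Junb, a partner of Jun. Ddit4, which restrains mTORC1 under stress, had 1682 and 2591 RPM at its deepest site on D7, against 301 and 766 on D0, a log2 change of 2.17 ± 0.43 (adjusted p = 0.0152). The call was lost without D7 replicate 1 (0.0625) and without D7 replicate 2 (0.0641) where the minimum was applied again, and on the same sites without D7 replicate 2 (0.0541) but not D7 replicate 1 (0.0249), and 10 of the 12 Ddit4 sites passed with all libraries. The deeper Junb site had 393 and 439 on D7, against 197 and 199 on D0, and its call was lost without any one library, with adjusted p-values of 0.13 (D7 replicate 1), 0.0643 (D7 replicate 2), 0.0655 (D0 replicate 1) and 0.0741 (D0 replicate 2). Jun, a subunit of the AP-1 transcription factor, had 619 and 757 on D7 and 0 on D0, at least 28.6-fold higher. Klf6 had 88.2 and 52.4 on D7 and 0 on D0, at least 2.93-fold higher. Ier2, Ier3 and Hspa5 did not pass, and Hspa5, the chaperone of the endoplasmic reticulum, had 1657 and 1437 on D7, against 2039 and 1413 on D0. Id3, an inhibitor of basic helix-loop-helix factors outside this list, had 1590 and 1313 on D7, against 508 and 259 on D0, a call lost without D7 replicate 1 (adjusted p = 0.0949) or D0 replicate 2 (0.0563).

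Sites in 3 carriers of glucose and lactate rose, and no glycolytic enzyme passed the test upwards. The median over 21 sites with 20 reads in all 4 libraries was 0.01, against -0.17 over all such sites. Of the 21, 5 rose and 1 fell, against 3.01% and 7.72% over all such sites. The 5 were those of Slc2a3 (2 of 2 sites), Slc2a1 (2 of 3) and Slc16a1 (1 of 1), while the lactate carrier Slc16a3 passed at none of 5, with log2 changes of 0.01 to 0.91. Slc2a3, a neuronal and embryonic glucose transporter, had 1895 and 1582 RPM on D7, against 528 and 738 on D0 (log2 1.50 ± 0.26). Slc2a1, the widespread glucose transporter, had 1902 and 1870 on D7, against 679 and 1063 on D0. Slc16a1, a lactate carrier, had 607 and 458 on D7, against 245 and 147 on D0. Without D7 replicate 1 the adjusted p was 0.0949 for Slc2a3, 0.166 for Slc2a1 and 0.161 for Slc16a1. Slc2a1 was also lost without D7 replicate 2 (0.0688) and D0 replicate 1 (0.0663), and Slc16a1 without D0 replicate 2 (0.0878). Pkm, pyruvate kinase, had 642 and 929 on D7, against 1259 and 1392 on D0, and did not pass (adjusted p = 0.0797).

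A few sites in genes of translation and of the cell cycle fell. Of 29 translation sites with 20 reads in all 4 libraries 3 fell and none rose, with a median of -0.26, near the 7.72% lower and the -0.17 over all such sites. Eif5a, the translation factor that carries hypusine, had 900 and 1372 RPM on D7, against 4150 and 5121 on D0 (log2 -2.06 ± 0.29), and the adjusted p was 0.0584 without D7 replicate 1 (0.0219 on the same sites). The ribosomal protein gene Rpl8 had 8320 and 9086 on D7, against 14848 and 17570 on D0, a call lost without D7 replicate 1 (0.177), D7 replicate 2 (0.0708, but 0.0442 on the same sites) or D0 replicate 2 (0.0878). Of 17 cell cycle sites with 20 reads in all 4 libraries 5 fell, with a median of -0.95, and they were the Mybl2 site and all 4 sites of E2f1, a transcription factor of S phase entry. The deepest E2f1 site had 88.2 and 138 on D7, against 347 and 301 on D0, and its adjusted p was 0.118 without D7 replicate 1. Mcm2, Ccnd1 and Aurka had log2 changes of -1.33, -0.95 and -0.97 and did not pass.

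In the Polycomb and chromatin list, 8 of 73 sites rose and 4 fell, shares near the 11.7% and 3.73% over all tested sites. The 4 that fell were those of Epop. At the 32 sites with 20 reads in all 4 libraries none rose and 4 fell, against 3.01% and 7.72% over all such sites. All 4 sites of Dnmt3b, a de novo DNA methyltransferase of the early embryo, rose, none of them with 20 reads in all 4 libraries. Its deepest had 412 and 517 RPM on D7, against 150 and 63.0 on D0, and without one library the adjusted p was 0.0953 (D7 replicate 1), 0.0773 (D7 replicate 2) or 0.0728 (D0 replicate 2). Ezh2, Eed and Dnmt1 did not pass. Genes for helicases and proteins that bind or unwind rG4s mostly did not pass. Of 126 of their sites with 20 reads in all 4 libraries 6 rose, in Hnrnph1, Hnrnpa1 and Lin28a, and none fell, with a median of 0.19, against 3.01% higher, 7.72% lower and -0.17 over all such sites. Hnrnph1, which binds G runs in pre-mRNA, had 1120 and 648 on D7 at its deepest site, against 316 and 220 on D0, a call lost without D7 replicate 1 (adjusted p = 0.13) or D0 replicate 2 (0.102). None of the 22 sites of Dhx9, an rG4 helicase, passed, with log2 changes of 0.04 to 0.50, nor any of 18 in Taf15 and 13 in Ncl.

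Calls in 1 gene mostly went one way, while the signs of all its sites often did not. Of the 164 genes with 5 or more tested sites, 63 had a call, and 2 of these had calls in both directions. All sites had one sign in 69 of the 164. All sites passed in 7 genes that rose, among them H19, Xist and Peg3, and in 1 that fell, Aldh2, a mitochondrial aldehyde dehydrogenase, whose 5 sites had a median change of -1.26 and a lowest of -1.44. Sox2ot, a noncoding RNA whose locus holds the Sox2 gene in the same orientation, fell at 3 of 8 sites and was negative at all 8, from -1.87 to -0.75. Reads from both genes cannot be told apart here, and Sox2ot was picked after its values were seen.

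**Figure D3:**
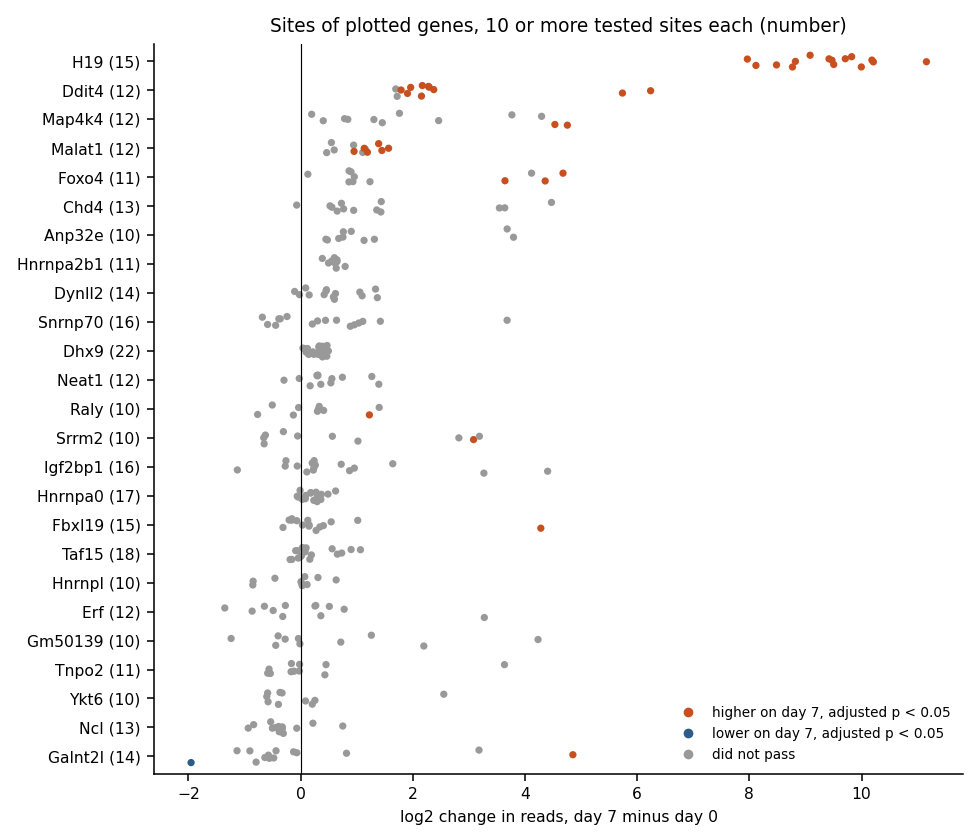
Log2 change in coverage, D7 minus D0, for each tested site of the plotted genes, each with 10 or more tested sites, with the number of sites in brackets, orange for sites higher on D7 and blue for lower at an adjusted p under 0.05, and grey for the rest. All 15 H19 sites lie at 7.97 or more, 10 of 12 Ddit4 sites passed, and the 22 Dhx9 sites lie within 0.04 to 0.50.

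K+ stops, which rise with the amount of RNA and with the share that stops, could be tested at 350 sites. Of these 47 in 30 genes were higher on D7, 13.4%, and 26 in 23 genes were lower, 7.43%, by limma-voom at an adjusted p under 0.05, with a median log2 change of 0.10. Stops were scaled to the stops of each library. Scaled to total reads alone, the median was 1.01 and the counts 107 higher and 6 lower, so directions hold relative to the other sites. Refitted on the same sites, 26 rose and 1 fell without D0 replicate 2, 47 rose and 4 fell without D0 replicate 1, 35 rose and 4 fell without D7 replicate 1, and 53 rose and 34 fell without D7 replicate 2. With the minimum applied again, 0 sites were called without D7 replicate 1 by limma-voom, with 27 of 212 at an unadjusted p under 0.05, and without D7 replicate 2, D0 replicate 1 and D0 replicate 2 the counts were 0 higher and 8 lower, 48 higher and 1 lower, and 26 higher and 0 lower.

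The stops that rose were led by RNAs whose coverage had risen by day 7. H19 rose at 10 of 10 tested sites, and its deepest had 461 and 52 stops on D7 and none on D0, at least 9.33-fold higher. The canonical Xist motif had 91 and 41 stops on D7 and none on D0, at least 3.14-fold higher, a call lost on the same sites without D0 replicate 1 (adjusted p = 0.116) or D0 replicate 2 (0.0836). Ccn1 had 89 and 28 stops at one site on D7 and none on D0, at least 2.56-fold higher. Peg3 had 94 and 40 on D7, against 1 and 0 on D0, with a log2 change of 4.42 ± 0.58 (adjusted p = 0.000937). At 34 of the 47 sites coverage was called higher as well, and at 44 it had the same sign. At 23 of the 47 sites D0 had no stop, so these sites had passed the minimum through D7 alone, which favours a rise.

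The stops that fell followed coverage in sign at 26 of 26 sites, and coverage was called lower at 11. Pou5f1 had 69 and 86 stops on D7, against 334 and 86 on D0, and relative to the libraries' stops the log2 change was -2.76 ± 0.56 (adjusted p = 0.00637). That call was lost without D0 replicate 1 (0.0964), D0 replicate 2 (0.248) or D7 replicate 1 (0.121, but 0.00973 on the same sites). Eif5a had 19 and 13 stops on D7, against 74 and 29 on D0, with a log2 change of -3.34 ± 0.69. Cox8a, a subunit of cytochrome c oxidase, had 11 and 14 on D7, against 83 and 8 on D0. Rps15, a ribosomal protein, had 71 and 40 on D7, against 117 and 40 on D0, a log2 change of -2.13 ± 0.41. The Eif5a call was lost without any one library, with adjusted p-values of 0.344 (D7 replicate 1), 0.0628 (D7 replicate 2), 0.109 (D0 replicate 1) and 0.228 (D0 replicate 2). The Cox8a call was lost without D7 replicate 1 (0.344), D0 replicate 1 (0.181) or D0 replicate 2 (0.0572), and the Rps15 call without D7 replicate 1 (0.299) or D0 replicate 2 (0.092). On the same sites Eif5a passed without either D7 library (0.0187 and 0.00171), Cox8a without D0 replicate 2 (0.0467) and Rps15 without D7 replicate 1 (0.0261).

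At 13 sites the stops rose without a coverage call, in Midn, Dynll2 (2 sites), Kpnb1, Ccdc47/Strada, Laptm4a, Ptk7, Lzts2, Podxl, Wnk1, Fkbp4, Asna1 and Trim71, named after their values were seen. Of these, the Dynll2 site with the lower position, in a dynein light chain gene, had a K+ share of 21.7% and 12.2% on D7, against 2.99% and 0% on D0, while the Li+ share was 14.9% and 13.6% on D7 and 3.57% and 5.88% on D0. Ptk7, a pseudokinase of planar cell polarity, had a K+ share of 24.1% and 14.4% on D7, against 6.59% and 3.77% on D0, with a Li+ share of 11.9% and 9.88% on D7 and 9.38% and 17.9% on D0. Trim71, a stem cell ubiquitin ligase and let-7 target, had 8.97% and 7.86% in K+ on D7, against 0.658% and 0% on D0. In Li+ Trim71 had 2.48% and 6.0% on D7, against 4.35% and 8.82% on D0. Shares of a few stops in K+ on D0 carry wide counting error.

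**Figure D4:**
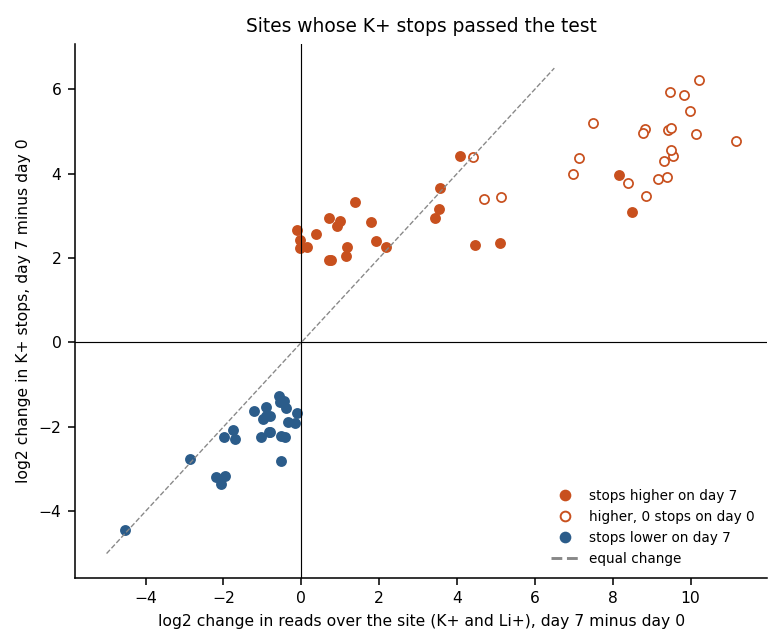
Log2 change in K+ stops against log2 change in coverage, D7 minus D0, at the 73 sites whose stops passed the test, orange for stops higher on D7 (open where D0 had no stop) and blue for lower, with the dashed line at equal change. Open points lie to the right of and below the line, with fitted changes against 0 stops that are no bounds, and 13 orange points stand for sites without a coverage call, most of them near 0 on the coverage axis.

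The stop share is free of the amount of RNA, and no site passed the test for it. Of 1425 sites with 20 or more K+ reads in each of the 4 libraries, limma on the log2 odds of a stop called 0 (0.0%), with 108 at an unadjusted p under 0.05, of which 106 were higher on D7, and a lowest adjusted p of 0.631. In Li+ 0 of 1418 sites were called (0.0%), with 128 at an unadjusted p under 0.05, 45 higher and 83 lower. For the K+ odds over the Li+ odds of the same library 0 of 1252 were called (0.0%), with 107 at an unadjusted p under 0.05, 105 higher and 2 lower. On simulated data these tests recovered few 4-fold changes, 8.7% for K+, 7.61% for Li+ and 2.86% for the odds. The absence of calls therefore does not show that no site changed.

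The K+ shares nevertheless lay higher on D7 at many sites at once. Over the 1252 sites with 20 reads in each cation and library, the mean K+ share was 6.06% and 3.93% on D7, against 3.13% and 2.67% on D0, and the mean Li+ share 4.08% and 4.19% on D7, against 3.59% and 4.49% on D0. Both D7 libraries were above both D0 libraries in K+ at 516 sites (41.2%) and below them at 87 (6.95%). In Li+ they were above at 267 (21.3%) and below at 187 (14.9%). A two-sided exact permutation test of the library means gave p = 0.33 for K+ and 1.0 for Li+, and 2 against 2 cannot go below 0.33.

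Canonical motifs, with runs of at least 3 guanines and loops of up to 7 bases, showed the widest gap of the 5 larger classes. At their 202 sites in 159 genes the mean K+ share was 9.77% and 6.29% on D7, against 4.48% and 2.51% on D0, or 8.03% ± 2.46 on D7 and 3.50% ± 1.39 on D0 (SD, n = 2 each; exact permutation p = 0.33). The Li+ share at the same sites was 4.81% and 5.53% on D7, against 4.57% and 7.08% on D0. Both D7 libraries were above both D0 libraries in K+ at 124 of the 202 sites (61.4%), against the 41.2% of all 1252, and below at 5. The log2 odds of K+ over Li+ were higher on D7 at 181 of the 202 (89.6%), with a median difference of 1.31, against 71.6% and 0.63 over all sites. With the cation columns of D0 replicate 2 exchanged, they were higher at 126 of the 202 (62.4%) with a median of 0.33, against 58.9% and 0.22 over all sites. Long-loop motifs (139 sites) had 5.88% and 3.44% in K+ on D7, against 2.66% and 2.49% on D0. Bulged motifs (503 sites) had 5.81% and 3.83% on D7, against 3.03% and 2.76% on D0. Motifs of the two-quartet class (228 sites) had 4.66% and 2.61% on D7, against 2.39% and 2.28% on D0. The classes were not tested against each other.

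By region the gap in K+ was 2.57 percentage points in 3′ UTRs and 0.947 in coding sequence. The 786 sites in 3′ UTRs had a mean K+ share of 6.56% and 4.04% on D7, against 3.00% and 2.46% on D0, and their Li+ share was 4.05% and 4.11% on D7, against 3.24% and 4.63% on D0. The 268 coding sites had 4.46% and 3.06% in K+ on D7, against 3.03% and 2.60% on D0. The 34 sites in 5′ UTRs had 7.34% and 6.84% on D7, against 6.16% and 5.88% on D0. At the 164 canonical sites in 3′ UTRs the mean was 10.3% and 6.51% on D7, against 4.64% and 2.53% on D0, and the K+ over Li+ odds were higher on D7 at 155 of them (94.5%), and at 110 (67.1%) with the columns of D0 replicate 2 exchanged.

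1 library bears on all of these shares. In D0 replicate 2 the canonical sites stopped less in K+ (2.51%) than in Li+ (7.08%), and K+ lay above Li+ at 187 and 120 of the 202 sites on D7, against 98 and 33 on D0. With the K+ and Li+ columns of that library exchanged, the canonical K+ means would be 9.77% and 6.29% on D7 and 4.48% and 7.08% on D0, which overlap, and D7 would lie above D0 at 65 of 202 canonical sites and at 338 of all 1252 (27.0%). Nothing in the labels says that the columns are exchanged. Without D7 replicate 1 the median difference in the K+ odds was 0.30, against 0.60 with it. Pooled over reads at the same 1252 sites, the K+ share was 5.87% and 4.53% on D7 and 4.83% and 5.71% on D0, which overlap. On D0 the Ankrd60 coding site gave 4190 and 1909 of all 21402 and 7583 K+ stops outside ribosomal and mitochondrial sites. On D7 it gave 102 and 832 of 48553 and 19259. The weight of that site in the pooled shares was not tested. At the canonical sites the pooled share was 10.2% and 6.36% on D7 and 3.96% and 2.61% on D0. All of these mean and pooled shares lie far below the 50.3% and 52.3% that the canonical sites showed in K+ in the in vitro tables, against 10.9% and 9.37% there in Li+. The site lists came from those same in vitro tables, which favours high K+ shares there, so the gap is no measure of folding in cells.

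**Figure D5:**
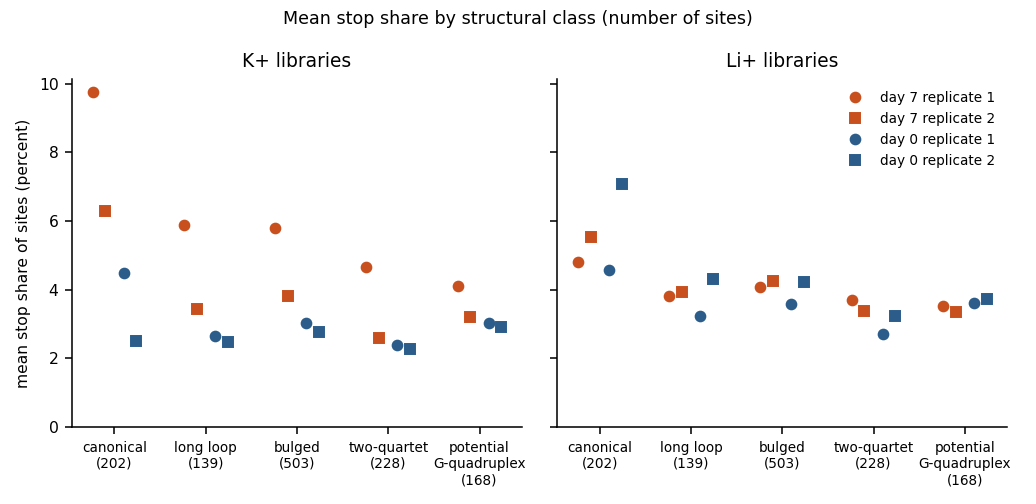
Mean stop share over sites (percent) in K+ (left) and Li+ (right) by structural class, with the number of sites in brackets, D7 in orange left of D0 in blue, circles for replicate 1 and squares for replicate 2. In K+ both D7 points lie above both D0 points in all 5 classes, most of all in canonical motifs (9.77 and 6.29 against 4.48 and 2.51), while in Li+ D0 replicate 2 has the highest canonical value (7.08).

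The canonical sites below were named for the lowest unadjusted p of their K+ share or odds, so their values describe them and support no pattern, and none passed the test. Acads, a mitochondrial acyl-CoA dehydrogenase, had a K+ share of 20.1% and 17.2% on D7, against 5.07% and 3.70% on D0, and a Li+ share of 4.40% and 5.26% on D7, against 6.36% and 6.67% on D0 (adjusted p = 0.631 for K+ by limma). Pdap1, a phosphoprotein that binds platelet-derived growth factor, had 24.8% and 16.4% in K+ on D7, against 10.0% and 3.96% on D0. Ap2b1, a subunit of the clathrin adaptor AP-2, had 10.2% and 6.96% on D7, against 2.27% and 2.22% on D0. Stip1, a co-chaperone that joins Hsp70 and Hsp90, had 21.1% and 15.1% on D7, against 7.78% and 5.38% on D0, while its coverage fell to 931 and 1001 RPM on D7, against 1661 and 2015 on D0 (log2 -0.92 ± 0.22), a call lost without D7 replicate 1 (adjusted p = 0.205), D7 replicate 2 (0.082) or D0 replicate 2 (0.0962). At the Xist motif, with no reads on D0, the share on D7 was 51.1% and 41.8% in K+ and 26.9% and 27.0% in Li+. At the Pou5f1 site it was 31.2% and 24.4% in K+ on D7, against 23.3% and 20.1% on D0, while the reads over the site fell. In Li+ the Pou5f1 share was 26.8% and 18.6% on D7, against 31.6% and 12.6% on D0, which overlap. Both D7 shares lay above both D0 shares in K+, as at 41.2% of all 1252 sites, and the site did not pass. Its K+ over Li+ odds changed by 0.38 on the log2 scale, against a median of 0.63 over all sites.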

How the data were processed

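The deposited tables give, per site, whole-number read counts that the authors made in each library: the reads over the site and the reads that end there, in K+ and in Li+, per the file headers. Reads were processed with cutadapt, STAR and SAMtools on GRCm38.p6/mm10, per the submitters' processing notes, which give no versions here. Site lists came from the in vitro tables of the day 7 samples, which were not used in the comparison. Of the 2197 gene symbols of tested sites, 2156 were found in the reference and 6 only as synonyms.

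Coverage was the K+ and Li+ reads summed. Ribosomal (CT010467.1, Gm15564) and mitochondrial sites were left out. Libraries were scaled on trimmed means of log ratios (trims of 0.3 and 0.05). Coverage and stops were fitted by limma-voom over all sites (R 4.3.3 and limma 3.58.1). The 2 libraries of day 3 were in the fit for the estimate of spread, with their sites at 0 kept as counts of 0. Sites needed 20 reads in 2 of the 4 libraries; stops needed 10 at the median library and 15 in all. Shares were tested with limma on the log2 odds with a pseudocount of 0.5, at sites with 20 reads in each of the 4 libraries. The day 3 libraries were in these fits too, with their sites at 0 coverage set to missing. Calls had a Benjamini-Hochberg adjusted p under 0.05. On simulated data with known changes, the coverage test at 4553 sites recovered 35.2% of 4-fold and 92.9% of 16-fold changes. The stop test at 350 sites recovered 68.9% and 96.8%, and the K+ share test at 1425 sites 8.7% and 41.7%. The Li+ share test at 1418 sites recovered 7.61% and 42.6%, and the K+ over Li+ odds test at 1252 sites 2.86% and 20.0%. Intervals for counting error were not carried into the comparisons, and reads without molecular identifiers are not independent molecules.

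Named genes are 1 site per gene, the one with most reads: the 12 with the largest rise among sites with 20 reads in all 4 libraries, the 10 with the highest D7 level among those at 0 on D0, the 12 with the largest fall, up to 4 called members of each list by lowest p, 8 stop sites each way, and the 6 sites of lowest p for each share, of which a selection is described. The members and lists were chosen with earlier results of these data known. Alternatives changed the scaling, the minimum, the samples, the test, the cation, the pseudocount and the handling of a listed 0. Fits without 1 library on unchanged sites, mean shares by class and the exchange of cation columns in those means were added after the data were seen. Results on a few genes and motifs are not reported here.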

Additional observations from a re-analysis of the deposited data

How the results depend on the processing

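Coverage calls (533 higher, 170 lower) stayed within 1.5 times with median-ratio size factors (565 and 143), total reads alone (515 and 150), ribosomal and mitochondrial sites kept (526 and 200) and no minimum (720 and 236). They were 122 and 197 with 5 times the minimum, 186 and 254 with the minimum scaled to depth, 347 and 53 with the D7 and D0 libraries alone, 247 and 77 with limma-trend, 241 and 92 summed per gene, 543 and 52 from K+ reads alone, 669 and 78 from Li+ reads alone, and 380 and 317 with each listed 0 set to 10 reads. Leaving out 1 library gave 11 to 904 higher and 8 to 272 lower. The labels do not say whether replicate numbers pair the samples of different days, and the main fit did not pair them. Differences between replicates 1 and 2 correlated at -0.00887 for D7 and D0, 0.303 for D3 and D0 and -0.0234 for D7 and D3. A replicate block gave 325 higher and 52 lower for coverage, and 49 and 18 for stops. Stop calls (47 higher, 26 lower) were 107 and 6 with total reads alone, 72 and 14 with no minimum, 5 and 4 with 5 times the minimum, 18 and 13 scaled to depth, 39 and 11 with the cation columns of D0 replicate 2 exchanged, and 41 and 13 with limma-trend. Leaving out 1 library gave 0 to 53 higher and 0 to 34 lower. The K+ share had 0 calls in every setting run. The Li+ share had 35 with a pseudocount of 2 and 1 with the block. The K+ over Li+ odds had 6 with a pseudocount of 2 and from 0 to 1 without 1 library. The D7 minus D0 difference in the pooled Li+ share was -1.504 percentage points, and -0.2805 with ribosomal and mitochondrial sites kept. Over sites, exchanging the cation columns of D0 replicate 2 moved the mean Li+ difference to 1.0 from 0.0904 for all sites, and to 1.63 from -0.655 for canonical ones. The Asna1 stops that rose at the coding site changed by -0.4693 when summed per gene, a sum that includes its 3′ UTR site, which fell. Except for such sums and for fewer sites or libraries, the cause was not tested. In D0 replicate 2, 43.8% of sites were listed at 0, and changes at those sites were not measured there beyond the floor.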
